A study of Mus musculus with 10 samples.

Results

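Enteroendocrine lineage transcription factors were followed in colonic crypts of mice by RNA sequencing. The set was a list of 9 genes chosen by name: Neurog3, the early factor, and Neurod1, Insm1, Isl1, Pax6, Nkx2-2, Rfx6, Rfx3 and Fev, the 8 late factors. All 9 were found by symbol among the 33632 Ensembl gene IDs of the count table. The table had 5 libraries of genotype Sox21fl/fl (flox) and 5 of genotype Lgr5-EGFP-IRES-CreERT2/+;Sox21fl/fl (CKO), all labelled as normal diet and normal liver. Both groups carried the floxed Sox21 alleles, and CKO alone carried the tamoxifen-inducible Cre at the Lgr5 locus, which is active in crypt stem cells. Age, sex, the tamoxifen schedule and whether each library came from its own animal were not given in the sources used here. Reported p-values therefore reflect only how these libraries vary, which may be technical. The comparison asks whether the factors of this lineage differed in crypts in which Sox21, a DNA-binding protein of the Sox family, can be deleted from stem cells.

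Enteroendocrine cells are the rare hormone-secreting cells of the gut epithelium. A crypt progenitor that escapes Notch signalling and turns on Atoh1 can express Neurog3, a basic helix-loop-helix (bHLH) factor that appears only briefly and is needed for the lineage. Neurog3 in turn switches on Neurod1 and Insm1, and the homeodomain, paired-box and RFX factors then carry the cells on to hormone production.

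Regulatory sequence next to the genes is shown because bHLH factors such as Neurog3 and Neurod1 bind the E-box, CANNTG. The RefSeq promoter table (GRCm38.p6) held 8 of the 9 genes. In the 250 bases before the RefSeq start, read on both strands, E-boxes were present in the Neurog3, Neurod1, Isl1 and Nkx2-2 windows and in 1 of the 2 Pax6 windows. At least 1 was held by 66.2% of all 32851 promoters, so a match is common. The 4 single-start windows with a match are printed 5′ to 3′ up to the first annotated exon, in lower case with E-boxes in capitals.
Neurog3, chr10:62132840-62133089, plus strand: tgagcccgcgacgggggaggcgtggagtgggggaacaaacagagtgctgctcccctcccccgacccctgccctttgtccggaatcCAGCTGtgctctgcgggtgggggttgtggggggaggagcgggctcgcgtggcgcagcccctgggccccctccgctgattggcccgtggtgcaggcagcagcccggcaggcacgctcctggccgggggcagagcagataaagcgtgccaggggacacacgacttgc
Neurod1, chr2:79456786-79456886, minus strand: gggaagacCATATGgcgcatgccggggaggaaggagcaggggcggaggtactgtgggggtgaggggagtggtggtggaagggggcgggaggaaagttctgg
Nkx2-2, chr2:147186456-147186652, minus strand: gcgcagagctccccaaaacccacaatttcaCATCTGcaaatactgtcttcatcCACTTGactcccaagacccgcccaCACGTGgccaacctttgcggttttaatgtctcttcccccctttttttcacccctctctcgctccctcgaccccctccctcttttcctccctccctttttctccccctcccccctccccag
Isl1, chr13:116309690-116309938, minus strand: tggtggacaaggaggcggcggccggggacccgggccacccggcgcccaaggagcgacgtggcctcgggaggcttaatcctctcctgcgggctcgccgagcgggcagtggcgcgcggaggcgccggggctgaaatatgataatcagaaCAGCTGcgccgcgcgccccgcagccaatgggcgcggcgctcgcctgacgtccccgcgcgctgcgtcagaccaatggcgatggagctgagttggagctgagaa
Neurog3 and Isl1 each carried the E-box CAGCTG in the printed run. That of Neurod1 read CATATG, and Nkx2-2 carried 3 E-boxes that differ in their middle bases. The windows of Rfx6, Rfx3 and Fev held none. A pair of short forms of the Sox family site were searched in the same way. The letters ACAATG were found for Rfx6 alone (10.7% of all promoters). The other form, ACAAAG, was found for Neurog3 and for the Pax6 window whose first base lies in an annotated exon (16.5% of all promoters). These are matches of letters and not measured binding sites.

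All 9 factors were scarce, with 82 to 438 counts for the set in a library of 18926634 to 23642415 counts. Flox 1 and flox 4 stood apart in 26.5% and 29.3% mitochondrial counts against 4.30% to 11.8% elsewhere, and their scaling factors were 0.585 and 0.605 against 0.965 to 1.28. A single count was therefore worth 0.0791 and 0.0756 units of count scaled by library size (CPM) in these libraries and 0.0346 to 0.0548 CPM in the rest. Sox21 itself was not lower in CKO, at 5.34 ± 1.94 CPM against 4.04 ± 1.80 CPM in flox (SD, n = 5 each), so the group names stand for the labels alone. Which exons of Sox21 are floxed was not given in the sources used here. All 13 markers of crypt epithelium were tested, 5 of them higher in CKO, and their sum was 40400 to 43900 CPM in flox and 18800 to 37600 CPM in CKO. That sum is carried by a few abundant genes such as the goblet cell mucin Muc2 (14200 ± 3130 CPM in flox, 8590 ± 2060 CPM in CKO), while the adhesion molecule Epcam was at 871 ± 231 and 1030 ± 77.0 CPM.

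In the comparison of CKO with flox no factor passed the test, and the early and late factors differed from each other by less than the spread between libraries. Mean Neurog3 was 0.778 ± 0.574 CPM in flox against 0.878 ± 0.285 CPM in CKO. Of the 5 tested late factors Neurod1 and Insm1 had the largest fitted differences, with CKO to flox ratios of 1.46 and 1.44, and Fev was the tested factor with a ratio below 1, at 0.814. Rfx6, Pax6 and Isl1 fell below the filter on low counts. By edgeR's quasi-likelihood test 0 of the 6 tested members passed an adjusted p of 0.05 (0% of all 14963 tested genes did), and 0 passed an unadjusted p of 0.05 (13.0% of all genes). DESeq2 called 0 of the 9 members (0.957% of 17243 genes). In 0 of 9 members did the groups separate without overlap (2.18% of tested genes). In whole crypts, fewer cells of a type and less RNA per cell cannot be told apart.

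**Figure D1:**
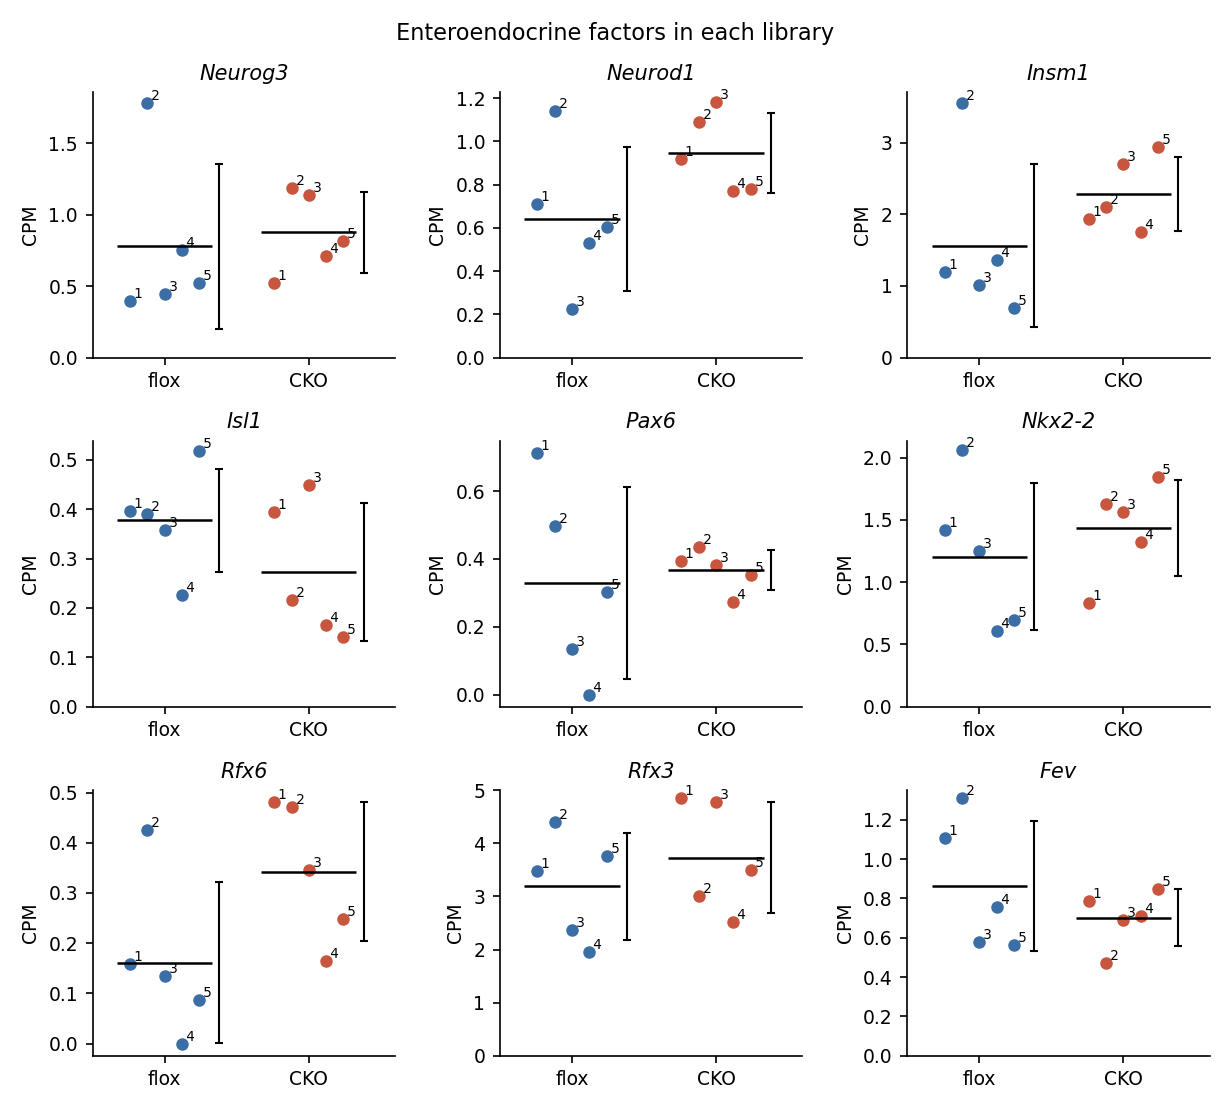
CPM (y axis) of the 9 factors in each of the 10 libraries, flox in blue and CKO in red, with the replicate number beside each point, the group mean as a line and the SD as a bar (n = 5 each). Flox 2 was the highest library for 4 of the 9 factors, and the groups overlapped for all 9.

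Neurog3 (ENSMUSG00000044312), the factor that starts the lineage, had 5, 50, 10, 10 and 12 counts in the 5 flox libraries, given here and below in replicate order, and 12, 33, 33, 13 and 23 counts in CKO. Those reads gave 0.396, 1.78, 0.446, 0.756 and 0.519 CPM in flox and 0.525, 1.19, 1.14, 0.713 and 0.814 CPM in CKO. Flox 2 was above every other library, all 5 CKO libraries were above the flox median, and the groups overlapped. The lowest CKO library, CKO 1 at 0.525 CPM, was barely above that median, flox 5 at 0.519 CPM, and both had 12 counts. The log2 fold change was 0.14 ± 0.45 (SE, edgeR adjusted p = 0.882), and the 95% interval of the ratio was 0.560 to 2.18. With 5 counts the counting error alone is 44.7% of the value, and with 50 counts it is 14.1%. Without flox 2 the log2 fold change was 0.74 ± 0.38, and without flox 1 it was -0.0038. It was 0.01 without CKO 2 and 0.03 without CKO 3, so its value rested on single libraries of either group.

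In the GENCODE annotation Neurog3 shares 273 exon bases with Fam241b on the opposite strand. Whether the counting used strand was not given in the sources used here. Fam241b had 124 to 457 counts per library, with means of 11.8 ± 1.69 CPM (flox) and 14.5 ± 1.45 CPM (CKO). The part of the Neurog3 counts that came from Fam241b was not tested. Flox 2, the highest Neurog3 library, was also the highest flox library for Fam241b, at 14 CPM against 9.37 to 12.5 CPM in the others. The CKO libraries had 12.6 to 15.8 CPM of Fam241b, above 4 of the 5 flox libraries.

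Neurod1 (ENSMUSG00000034701), a bHLH factor turned on by Neurog3, had values of 0.712, 1.14, 0.223, 0.529 and 0.606 CPM in flox against 0.919, 1.09, 1.18, 0.768 and 0.778 CPM in CKO. Every CKO library was above 4 of the 5 flox libraries, and flox 2 lay within the CKO range. The log2 fold change was 0.55 ± 0.39 (SE, edgeR adjusted p = 0.496), with a 95% interval of the ratio from 0.815 to 2.62. Cerkl, which shares 201 exon bases with Neurod1 on the same strand, had 0 to 7 counts.

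Insm1 (ENSMUSG00000068154), a zinc finger factor of early endocrine cells, had values of 1.19, 3.55, 1.02, 1.36 and 0.692 CPM in flox against 1.93, 2.10, 2.70, 1.75 and 2.94 CPM in CKO. It had the same arrangement as Neurod1 in flox 1, 3, 4 and 5, which were all below the lowest CKO library, while flox 2 was the highest of the 10. The log2 fold change was 0.53 ± 0.41 (SE, edgeR adjusted p = 0.525), and the ratio had a 95% interval from 0.780 to 2.67. The mean was 1.56 ± 1.14 CPM for flox and 2.28 ± 0.510 CPM for CKO, so flox had the larger SD.

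Nkx2-2 (ENSMUSG00000027434), a homeodomain factor that acts in the choice between hormone types, had values of 1.42, 2.06, 1.25, 0.604 and 0.692 CPM in flox against 0.831, 1.63, 1.56, 1.32 and 1.84 CPM in CKO. The groups overlapped over most of their range, with flox 2 highest and flox 4 lowest. Its log2 fold change was 0.24 ± 0.37 (SE, edgeR adjusted p = 0.746; ratio interval 0.678 to 2.06), and it was 0.54 without flox 2 and 0.09 without flox 4 or without flox 5. The antisense gene Nkx2-2os shares 278 exon bases with it and had 0 to 3 counts.

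Pax6 (ENSMUSG00000027168), a paired-box factor that drives the proglucagon gene, had 9, 14, 3, 0 and 7 counts in flox and 9, 12, 11, 5 and 10 counts in CKO. In CPM this was 0.329 ± 0.284 for flox and 0.367 ± 0.0597 for CKO. Flox 4 had 0 counts, which at the depth of that library allows up to 0.227 CPM by 3 counts, and flox 1 was the highest at 0.712 CPM. Pax6os1, an antisense gene that overlaps the Pax6 locus without sharing exon bases, had 5 counts in flox 5 and 0 or 1 elsewhere.

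Isl1 (ENSMUSG00000042258), a LIM homeodomain factor of hormone-producing cells, had 5, 11, 8, 3 and 12 counts in flox and 9, 6, 13, 3 and 4 counts in CKO. Levels were 0.378 ± 0.105 and 0.273 ± 0.140 CPM, and 2 of 5 CKO libraries lay above the flox median. DESeq2, which kept Isl1, gave a log2 fold change of -0.48 with an adjusted p of 0.678, and for Pax6 it gave 0.18 with an adjusted p of 0.906. The direction of Pax6 rested on single flox libraries: the log2 ratio of its group means was 0.16, and it was 0.65 without flox 1, -0.04 without flox 3 and -0.16 without flox 4.

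Rfx6 (ENSMUSG00000019900), an RFX factor of gut and pancreatic endocrine cells, had 2, 12, 3, 0 and 2 counts in flox and 11, 13, 10, 3 and 7 counts in CKO. The mean was 0.161 ± 0.160 CPM for flox and 0.342 ± 0.138 CPM for CKO. The lowest CKO library, at 0.165 CPM, was just above flox 1 at 0.158 CPM, so that 4 of 5 flox libraries lay below all CKO libraries and flox 2, at 0.426 CPM, did not. The log2 fold change by DESeq2 was 1.0 with an adjusted p of 0.492. The log2 ratio of the group means was 1.09, and 1.85 without flox 2, resting on at most 13 counts in a library.

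Rfx3 (ENSMUSG00000040929), a relative of Rfx6 that also serves ciliated cells and many other cell types, had the highest CPM of the set. Its values were 3.48, 4.40, 2.36, 1.96 and 3.76 CPM in flox against 4.86, 3, 4.77, 2.52 and 3.5 CPM in CKO. The groups covered nearly the same range. The log2 fold change was 0.22 ± 0.27 (SE, edgeR adjusted p = 0.690), with a ratio interval from 0.769 to 1.76 that was the narrowest of the 6 tested members on the log scale. Without flox 2 the fold change of Rfx3 was 0.37 on the log2 scale, and without flox 4 it was 0.09.

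Fev (ENSMUSG00000055197), an ETS factor of serotonin-producing cells and late endocrine progenitors, had values of 1.11, 1.31, 0.579, 0.756 and 0.562 CPM in flox against 0.788, 0.471, 0.692, 0.713 and 0.849 CPM in CKO. Flox 1 and flox 2 were above all CKO libraries and the other flox libraries were among them. Its log2 fold change was -0.30 ± 0.34 (SE, edgeR adjusted p = 0.659; ratio interval 0.490 to 1.35). The direction changed on the FPKM scale, with log2 differences of 0.07 at a pseudocount of 1 and 0.20 at a pseudocount of 0.1, and with total-count scaling (0.07). Flox 3 and flox 5 both had 13 counts of Fev but were listed at 1.37 and 0.50 FPKM in the deposited table, so the FPKM values of this gene did not follow its counts.

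**Figure D2:**
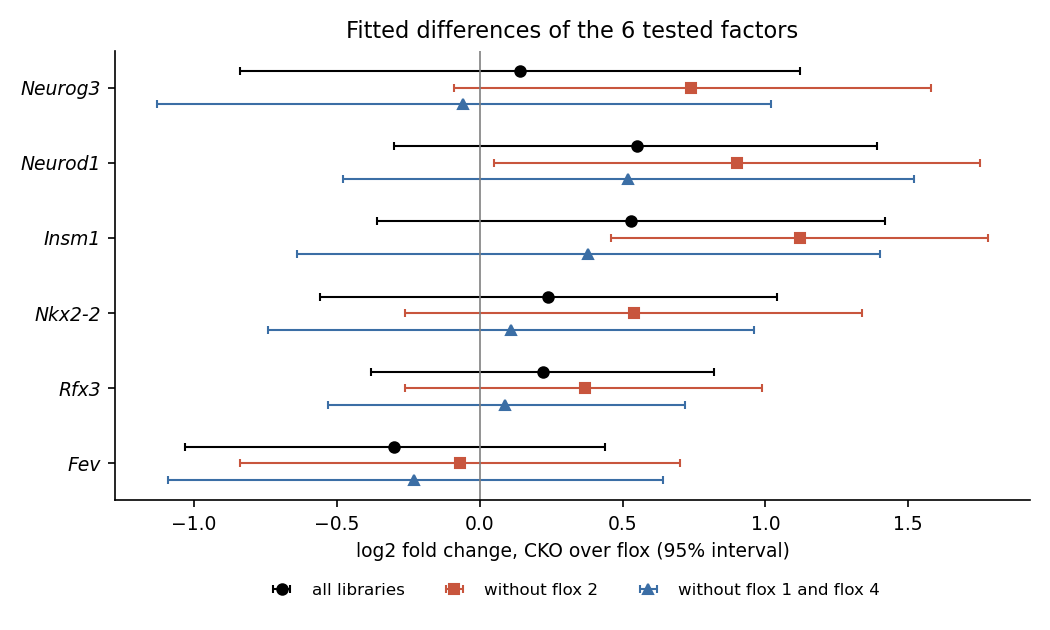
Log2 fold change of CKO over flox (x axis) with its 95% interval for the 6 tested factors, fitted with all libraries, without flox 2, and without flox 1 and flox 4. All 6 intervals with all libraries included 0, while those of Neurod1 and Insm1 lay above 0 without flox 2. Flox 2 held the highest flox value of all 6 factors, so leaving it out had to raise every fold change.

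Flox 2 was the highest library for 4 of the 9 factors and the lowest for 0, and flox 4 was the lowest for 4. Flox 2 also had the largest number of counts on the set, 438, against 82 to 179 in the other flox libraries and 153 to 382 in CKO. Without flox 2, 5 of 6 tested members were higher in CKO, as with all libraries, where 51.3% and 50.1% of all genes were higher. Insm1 then had a log2 fold change of 1.12 ± 0.30 and Neurod1 0.90 ± 0.39, with unadjusted p of 0.00327 and 0.0403 by edgeR, and 20.8% of 15149 genes had an unadjusted p under 0.05. Adjusted over all genes they did not pass, at 0.180 for Insm1 and 0.226 for Neurod1, where 2 genes in all did (0.0132%). Flox 2 held the highest flox value of all 6 tested members, so leaving it out had to raise the ratio of each. The p-values of that fit are therefore no test of a difference between the groups. Over all alternatives run, the adjusted p ran from 0.118 to 0.930 for Insm1, from 0.0929 to 0.885 for Neurod1 and from 0.274 to 0.997 for Neurog3. Without flox 1 and flox 4, the libraries with many mitochondrial counts, Neurog3 had a log2 fold change of -0.06 and Insm1 0.38, and 6 of the 9 members that then passed the filter were higher (53.3% of genes), with 0 at an unadjusted p of 0.05 (6.41% of 15628 genes) and 0 at an adjusted p of 0.05 (0%).

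Early and late factors were set against each other in each library as log2(CPM + 0.25) of Neurog3 minus the mean log2(CPM + 0.25) of the 8 late factors. The difference was -0.83, 0.41, -0.21, 0.48 and -0.19 for the flox libraries and -0.64, 0.32, 0.07, -0.01 and -0.13 for the CKO libraries. It averaged -0.07 ± 0.54 over flox and -0.08 ± 0.35 over CKO, a gap of -0.01 that is far below the SD of either group. Neurog3 alone was 0.24 higher in CKO on this log scale and the late factors 0.25 higher, against SDs of 0.67 and 0.44 in flox and of 0.38 and 0.16 in CKO. The shift of the late factors was thus below the SD of flox and above that of CKO. That shift averages factors that went both ways. Isl1 and Fev were lower in CKO (log2 ratios of group means -0.47 and -0.30), and the other late factors were higher, up to 1.09 for Rfx6. The added 0.25 CPM is also near the levels of Rfx6, Isl1 and Pax6, which shrinks their part in the score. The mean of the late factors was above 0.20 in CKO 1, CKO 2, CKO 3 and CKO 5 and -0.05 in CKO 4. In flox it was 0.61 in flox 2, 0.20 in flox 1 and -0.19 to -0.48 in the other three. Since the members form a chosen list, no p-value is given for these scores.

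**Figure D3:**
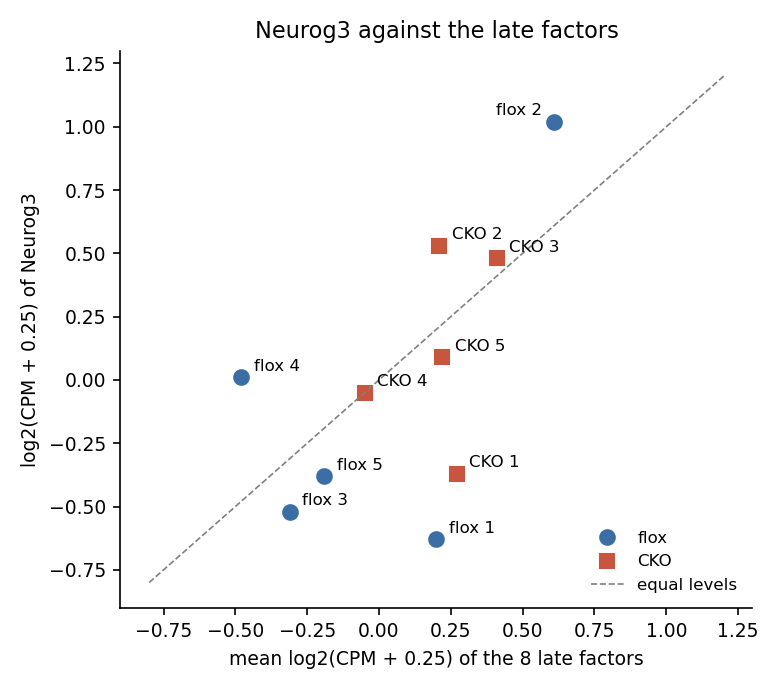
Neurog3 (y axis) against the mean of the 8 late factors (x axis), both as log2(CPM + 0.25), in each library, with flox as circles and CKO as squares. The CKO libraries lie within the spread of flox on both sides of the line of equal levels, flox 2 is highest on both axes, and flox 1 and flox 4 lie furthest from the line among flox.

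Levels per length were compared between genes with the deposited FPKM values, averaged over the 10 libraries. Fev (0.920 ± 0.451 FPKM), Nkx2-2 (0.826 ± 0.483), Neurog3 (0.812 ± 0.527) and Insm1 (0.758 ± 0.479) came first, and the gaps between them were 0.0140 to 0.0940 FPKM, below their SDs. Insm1 was above Rfx3 (0.439 ± 0.195 FPKM) in 9 of 10 libraries. Rfx3 and Neurod1 (0.354 ± 0.187 FPKM) were again closer than their SDs, as were Pax6 (0.255 ± 0.131 FPKM) and Isl1 (0.225 ± 0.125 FPKM). Rfx6 was last at 0.105 ± 0.0734 FPKM, and Isl1 was above it in 9 of 10 libraries. Rfx3, first by CPM, thus ranked below 4 of the other factors per length. The deposited FPKM did not follow the counts for Fev, as given above, nor for Isl1 and Pax6. Isl1 had 6 counts and 0.39 FPKM in CKO 2 but 13 counts and 0.26 FPKM in CKO 3. Pax6 had 3 counts and 0.25 FPKM in flox 3 but 7 counts and 0.23 FPKM in flox 5. Neurog3 and Nkx2-2 departed from their counts as well. Neurog3 had 12 counts in both flox 5 and CKO 1 but 0.45 and 0.69 FPKM there. Nkx2-2 had 58 counts and 1.78 FPKM in flox 2 against 52 counts and 1.29 FPKM in CKO 5. The places of these genes in the order are therefore uncertain.

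**Figure D4:**
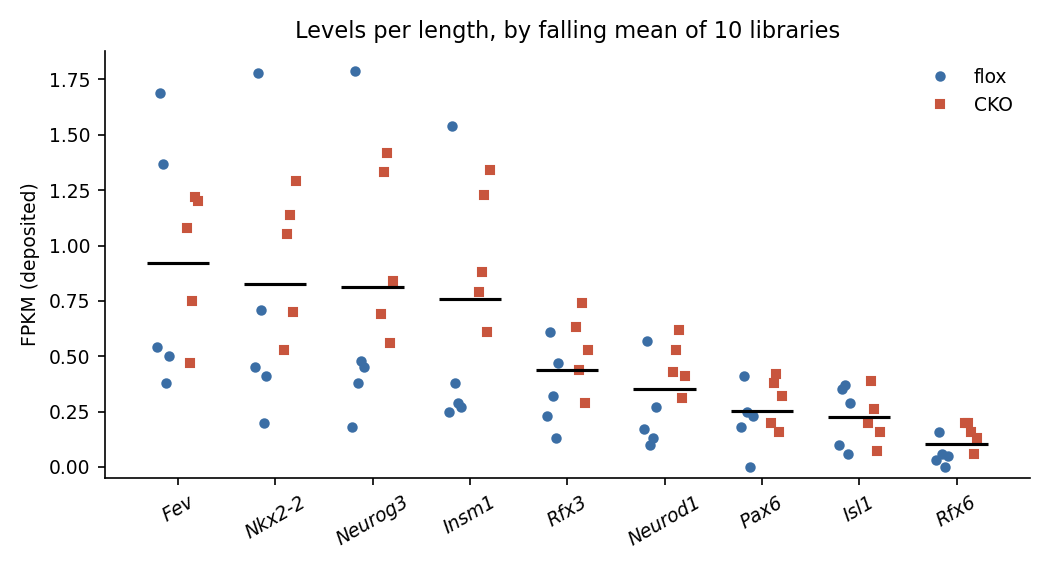
Deposited FPKM (y axis) of the 9 factors in the order of their mean over the 10 libraries (black line), with flox as circles and CKO as squares. The first 4 genes overlap widely, and Rfx6 is lowest at 0 to 0.20 FPKM.

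Among the other regulators of the lineage no gene passed the test. Of 33 listed transcription factors of enteroendocrine cells 18 were tested, 11 higher and 7 lower, with a median log2 fold change of 0.13 against 0.001 over all genes. The median of the list was 0.21 without flox 2 and -0.05 without flox 1 and flox 4. By edgeR 0 passed over all genes, 3 of 18 had an unadjusted p under 0.05 (13.0% of all genes), and DESeq2 called 0 (0.957%). The 3 with the smallest p were Mnx1, a homeodomain factor, with 0.651 ± 0.143 CPM for flox and 1.21 ± 0.482 CPM for CKO, Prox1 with 1.11 ± 0.276 and 0.613 ± 0.276 CPM, and Foxa2, a forkhead factor of the gut, with 18 ± 3.49 and 26.2 ± 8.89 CPM. Their edgeR adjusted p were 0.372, 0.377 and 0.379. Pax4, a paired-box factor of endocrine progenitors, did not pass the filter, with 0.168 ± 0.105 CPM for flox and 0.214 ± 0.0640 CPM for CKO.

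Upstream of Neurog3, the list of secretory choice and Notch genes had 21 of 24 members tested, 14 higher and 7 lower, with a median of 0.19 (0.32 without flox 2, 0.13 without flox 1 and flox 4). Again 0 passed by edgeR and 0 by DESeq2, and 4 of 21 had an unadjusted p under 0.05, against 13.0% of all genes. Atoh1, the bHLH factor that opens the secretory path, averaged 57.3 ± 19.3 CPM over flox and 63.7 ± 5.84 CPM over CKO, and Hes1, the Notch target that represses Atoh1 and Neurog3, at 42.9 ± 8.81 and 49.4 ± 5.62 CPM. The smallest p belonged to Spdef, a goblet cell factor, at 169 ± 31.6 and 111 ± 22.4 CPM, Btg2, an antiproliferative gene, at 78.1 ± 12.5 and 102 ± 10.1 CPM, and the receptor Notch2 at 2.42 ± 1.28 and 4.87 ± 1.78 CPM (edgeR adjusted p = 0.332, 0.365 and 0.373). Spdef was the 1 member of this list whose groups did not overlap (2.18% of all tested genes).

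Downstream, hormone and amine genes had 11 of 16 tested with 5 higher, 6 lower and a median of -0.01, and granule proteins 24 of 35 tested with 11 higher, 13 lower and a median of -0.06. Without flox 2 these medians were 0.30 and 0.13, and without flox 1 and flox 4 they were 0.19 and 0.03. By edgeR 0 passed in both lists, and unadjusted p were under 0.05 for 2 of 11 and 3 of 24 members (13.0% of all genes). DESeq2 called 1 (0.957% of all genes), the granule protein Scg2, with 0.278 ± 0.173 CPM for flox and 1.13 ± 0.597 CPM for CKO (edgeR adjusted p = 0.308, DESeq2 adjusted p = 0.0406). Cnga3, a cyclic nucleotide-gated channel, stood at 0.648 ± 0.204 and 0.141 ± 0.148 CPM, and Syt7, a calcium sensor of exocytosis, at 60.8 ± 8.17 and 48.1 ± 6.40 CPM. Ddc, the enzyme that makes serotonin and dopamine from their precursors, was at 31.5 ± 4.52 and 46.0 ± 16.7 CPM. The hormones Insl5 and Gcg, which with Ddc had the lowest p of the hormone and amine list, had log2 fold changes of 0.88 and 0.39. Gcg was not under 0.05, with an unadjusted p of 0.142 and an adjusted p of 0.464 by edgeR. Without flox 2 the log2 fold change of Gcg was 0.70 (edgeR adjusted p = 0.163), from the fit described above as no test of a difference. In 2 of the 24 tested granule genes the groups did not overlap (2.18% of all tested genes), with Cnga3 lower in CKO and Scg5, a chaperone of prohormone processing, higher at 0.994 ± 0.236 CPM against 0.437 ± 0.284 CPM in flox. Summed granule genes were 342 CPM in flox 2, the library with the highest factors, and 157 to 236 CPM in the other 9. Summed hormone and amine genes did not set flox 2 apart, at 182 CPM against 123 CPM in flox 5 and 278 CPM in flox 1, the lowest and highest libraries.

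**Figure D5:**
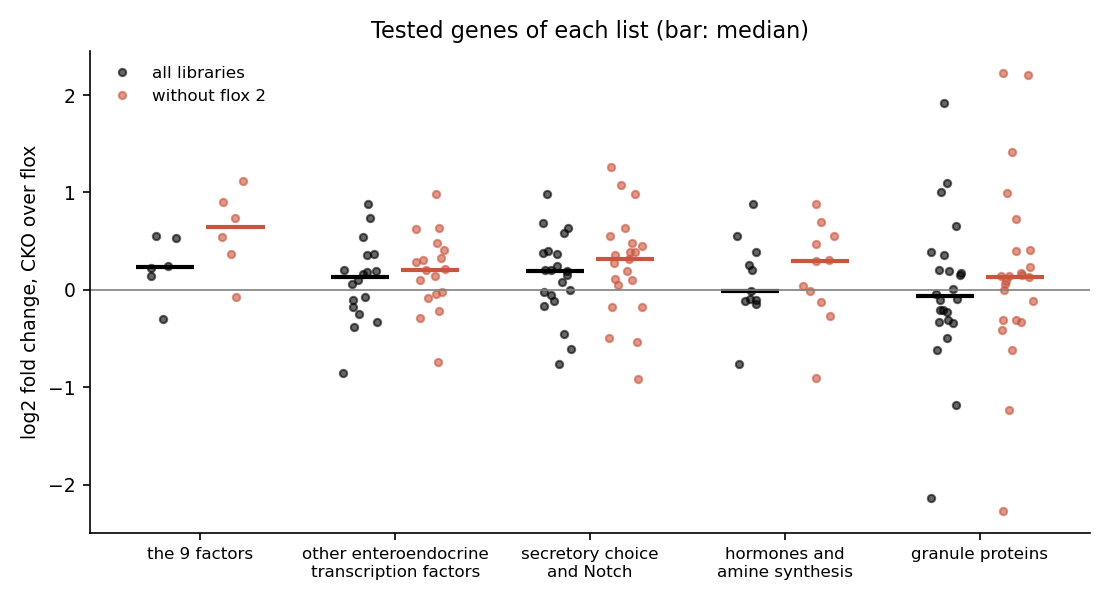
Log2 fold change of CKO over flox (y axis) of each tested gene of 5 lists, with all libraries in black and without flox 2 in red, and the median as a bar. The median of the 6 tested factors was 0.23 with all libraries and 0.64 without flox 2, and that of granule proteins -0.06 and 0.13. Flox 2 held the highest flox value of all 6 factors, so the rise of their median was fixed in advance.

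Genes whose log2 CPM followed a factor most closely over the 10 libraries were taken from 11655 genes with at least 1 CPM. For Neurog3 these were Map10 (r = 0.92), the calcium channel gene Cacna1a (0.90) and Atoh1 (0.84), and for Insm1 they were Frat2 (0.90), Atoh1 (0.90) and Hes1 (0.89). Without flox 2 the values of Neurog3 were 0.86, 0.85 and 0.71. Atoh1 therefore stood among the 3 closest genes of both. Neurod1 was closest to Lpar2 (0.93), Zbtb6 (0.92) and Rundc3b (0.91), and Nkx2-2 to Tcf3 (0.94), Angptl4 (0.93) and Dvl2 (0.93). Rfx3 was closest to Nkapd1 (0.94), Ormdl1 (0.93) and Mdfic (0.92), and Fev to Zfp212 (0.86), Vma21 (0.86) and Syngr1 (0.85). These Pearson values describe 10 libraries that share depth and mitochondrial share, were picked as the highest of many, and carry no test.

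Several of the factors are also made outside the epithelium, so markers of other cells were summed. Enteric neuron markers, 13 of 14 found and 4 tested, reached 4.72 to 6.14 CPM in flox and 3.11 to 6.20 CPM in CKO, with Elavl3, Elavl4, Tubb3, Prph, Nos1 and Vip each below 0.2 CPM on average. Most of the neuron sum came from Ret, Chat, Uchl1 and Snap25, with flox means of 2.08, 0.832, 0.673 and 0.557 CPM. Of 6 glial markers found, S100b, Sox10 and Gfap were below 0.2 CPM, and Erbb3, which epithelium also expresses, made up nearly all of the 141 to 249 CPM over all libraries. Tuft cell markers had 0 of 11 tested members higher in CKO, with sums of 89.8 to 231 CPM in flox and 62.2 to 159 CPM in CKO. Goblet cell markers had 0 of 12 higher, with sums of 27700 to 42900 and 14300 to 26200 CPM. Fibroblast and muscle markers had 12 of 12 tested members higher, with sums of 36.1 to 108 and 79.0 to 268 CPM, and leukocyte markers 3 of 14, with sums of 147 to 670 and 261 to 460 CPM. The lists were chosen with earlier results of these data known, so these counts are no test of a direction. In flox 2 the sums of these lists were within the range of the other flox libraries except for enteric neuron and glial markers, where flox 2 was the highest of the flox group at 6.14 and 246 CPM. Their part in the factor values was not tested.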

How the data were processed

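Total RNA of colon crypts was made into libraries with a TruSeq kit that enriches mRNA, per the labels' protocols. The submitters' processing notes name fastp and HISAT2 for the reads. Which build, annotation, counting tool and strand setting were used was not given in the sources used here. Deposited counts are whole reads per Ensembl gene ID, not normalized. The deposited FPKM table holds the authors' values per length and library total.

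Symbols came from GENCODE M21 (26095 of 33632 IDs matched). Counts passed edgeR's filterByExpr (14963 genes), were scaled by TMM factors and compared by edgeR 4.0.16's quasi-likelihood test in R 4.3.3 (robust fit, group as the only term), adjusted by Benjamini-Hochberg over all genes at 0.05. CPM are counts over the scaled library size. Members that failed the filter are given as counts, with DESeq2 1.42.0 values beside them. Alternatives, among them limma 3.58.1 on the FPKM values, are in the closing section. The fit was tested on simulated counts.

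The members and lists were chosen with earlier results of these data known. Named were all members, Sox21, the 3 genes with the smallest p of each list (up to 4 past the threshold where any passed), and the 3 genes most like each tested member. Atoh1, Hes1, Pax4 and overlapping genes were named after their values were seen. Replicate numbers in both groups are not said to pair animals. The closest pair of libraries differed by a chi-square of 30 per degree of freedom, so all 10 were counted separately. Members of the lists that are not reported here are included in the list counts.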

Additional observations from a re-analysis of the deposited data

Results flagged for a closer look

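Among 18 sets of 5 libraries (9 factors in each group), 2 had a library whose gap to its neighbour was a larger part of the range than 0.710, and about 1 in 20 sets is expected to do so by chance. Both were flox 2: Neurog3 at 1.78 CPM, against 0.396 to 0.756 CPM in the other flox libraries (gap over range 0.739), and Insm1 at 3.55 CPM, against 0.692 to 1.36 CPM (0.766). Sampling error of the 50 counts of Neurog3 and 100 counts of Insm1 in flox 2 is 14.1% and 10%.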

How the results depend on the processing

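In the fits of all libraries edgeR called 0 genes. DESeq2 called 165, limma voom with quality weights 44, no filter 3 and the mitochondrial share as a covariate 1, and leaving out 1 library gave 0 to 2. The log2 fold change of Neurog3 turned to -0.14 with that covariate and -0.06 without flox 1 and flox 4, and ran from -0.0038 to 0.74 as single libraries were left out. That of Fev became 0.07 with total counts only, 0.01 with quality weights, and 0.07 and 0.20 on log2(FPKM + 1) and log2(FPKM + 0.1). The log2 ratio of Rfx6 means ran from 0.77 to 1.85 as single libraries were left out. The causes were not tested. Insm1, Neurod1, Nkx2-2 and Rfx3 kept values above 0 in all alternatives run, from 0.02 (Rfx3) to 1.40 (Neurod1), and no member passed an adjusted p of 0.05 in any. The gap of Neurog3 to the late factors ran from -0.20 to 0.22. With the replicate block edgeR called 0 genes, and Neurog3 had 0.32 and Insm1 0.74. Same-numbered libraries deviated together with r of -0.30, 0.28, 0.09, 0.40 and -0.06, and 2 of 5 flox libraries were closest to the CKO library of their number. The fits by other tools were not tabulated as alternatives for Isl1, Pax6 and Rfx6, which have no main test, and some members failed the stricter filter. Depth limits all of this: 3 of 9 factors had at most 14 counts in any library.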

Other observations

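Relatives of Rfx3 and Rfx6, named after their values were seen, were more abundant. Rfx2 averaged 3.49 ± 1.05 CPM over flox and 5.87 ± 3.22 CPM over CKO, Rfx5, known for MHC class II transcription, at 7.07 ± 3.14 and 8.17 ± 2.22 CPM, and Rfx7 at 22.9 ± 6.52 and 26.0 ± 4.04 CPM (n = 5 each). Their log2 fold changes of 0.74, 0.20 and 0.18 did not pass edgeR's test, with adjusted p of 0.387, 0.753 and 0.642.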
